A study of Saccharomyces cerevisiae with 8 samples.

Results

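Transcript starts concentrated on a single nucleotide were examined in transcript isoform sequencing (TIF-seq) data of budding yeast. The genome was divided into 100-nt bins on each strand, and the molecules of 8 libraries that started in each bin were summed. A bin was chosen by 2 measured values, at least 500 molecules and at least 50% of their 5′ ends at the most used position. This gave 281 bins, on all 16 chromosomes and with 142 on the plus strand, of 2198 bins with 500 or more molecules and 99030 bins with at least 1 molecule. The most used position of such a bin is called the dominant position here, and the percentage of the 5′ ends of the bin that lie on it is called its share. Since the summed share and the summed molecules selected the bins, both are given only as a description.

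RNA polymerase II of budding yeast assembles at a promoter and then scans downstream for a start site, so that a yeast promoter typically uses several positions spread over a region of the promoter. Promoters that fire from one position are the exception. The 5′ end of an mRNA sets the length of its leader, and a start inside a gene can give a shortened transcript. In TIF-seq the 2 ends of each cDNA are joined in a circle and read together, which gives the start and the end of the same molecule.

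All libraries came from one diploid strain of the SK1 background, FW2795. Both mating-type parents carry ho::LYS2, lys2, ura3 and hisG disruptions of leu2, his3 and trp1, together with 3 constructs. IME1, the regulator of entry into gametogenesis, is driven by the copper-inducible promoter (pCUP-3HA-IME1, at irt1). NDT80, which controls the meiotic divisions, is driven by pGAL (pGAL-NDT80), and pGPD1-GAL4(848).ER supplies a Gal4 protein that responds to β-estradiol. Cells were moved to sporulation medium (SPO), 50 μM CuSO4 was added at 2 h, and 1 μM β-estradiol was added at 6 h. The pm pool holds RNA from 0 to 2 h in SPO, the T1 pool from 3 to 6 h, and the T2 pool from 7 to 9 h. For the T3 pool, cells were instead returned to rich medium (YPD) at 6 h and sampled 15 to 120 min later. Each pool has 2 replicates and mixes equal amounts of RNA of several time points, so that changes within a pool cannot be seen, and timed entry depends on the engineered promoters. In these bulk samples fewer transcribing cells and less RNA per cell cannot be told apart.

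The libraries held between 552357 and 1820826 yeast molecules. Positions are on the SK1 assembly of the authors and are named here by chromosome, dominant position, and strand. No annotation or sequence of that assembly was used, so genes and promoter sequences are not given. All 281 bins passed the filter on low values in the comparison of levels, 259 of them were detected in all 8 libraries, and 195 had at least 10 molecules in each.

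The median share of the 281 bins was 59.4% and the highest was 87.7%. In all, 138 bins had a share of 60% or more and 41 of 75% or more. Among the other 1917 bins with 500 or more molecules the median was 26.6%. The highest share belonged to chr3:249600 (plus strand, 682 molecules), followed by chr5:122710 (minus, 87.5%), chr14:531397 (plus, 87.0%), chr6:58500 (minus, 86.9%), and chr12:421701 (plus, 85.8%). The bins just inside the limit were chr7:873506 (minus, 50.0%), chr13:522726 (plus, 50.1%), and chr4:804978 (minus, 50.1%). Those just outside were chr8:115595 (plus, 49.96%), chr3:274501 (minus, 49.8%), and chr16:410233 (plus, 49.7%). At the limit of 500 molecules, chr16:123597 (plus, 500 molecules) and chr2:587728 (plus, 502) were inside, and chr7:1039608 (minus, 495) and chr6:93208 (minus, 492) were outside.

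The 5′ ends that did not lie on the dominant position mostly lay more than 2 nt away from it. A bin used a median of 39 positions. The second most used position held a median of 10.2% of the ends and lay within 2 nt of the dominant one in 58 of 281 bins. It was downstream in 155 bins, and the offset found most often was 3 nt downstream, in 28 bins. Counting all ends within 2 nt raised the median share only from 59.4% to 68.4%.

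Many dominant positions lay next to a border of their bin. In 126 of the 281 bins (44.8%) the dominant position lay in the outer 10 nt of its bin, compared with 419 of the 1917 other bins (21.9%). When the share was taken within 50 nt on either side of the dominant position, 141 bins still reached 50% and 140 did not. Of the bins with the position in the outer 10 nt, 28 of 126 reached it, against 113 of 155 of the rest. The position was the most used one within 50 nt in 239 bins. For chr3:249600, the bin with the highest share, the share fell to 35.8% in the centred window, with further ends across the border. It stayed at 87.2% for chr5:122710 and was 18.2% for chr14:531397, 70.4% for chr6:58500, and 35.9% for chr12:421701. Of the 10 bins with most molecules, some did not reach 50% in the centred window. These were chr4:714200 (44.7%), chr2:460408 (44.4%), chr16:301002 (28.4%), and chr16:295395 (44.5%). In 6 pairs, dominant positions 20 nt or less apart had been split by a border and counted as separate bins, such as chr4:504996 and chr4:505008 (plus, 6702 and 6419 molecules, 12 nt apart). For 140 of the 281 bins, a share of 50% or more thus holds for the bin and not for the region around the position. The 141 bins that reached 50% in the centred window are called window-sharp below, and key results are given for them as well.

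**Figure D1:**
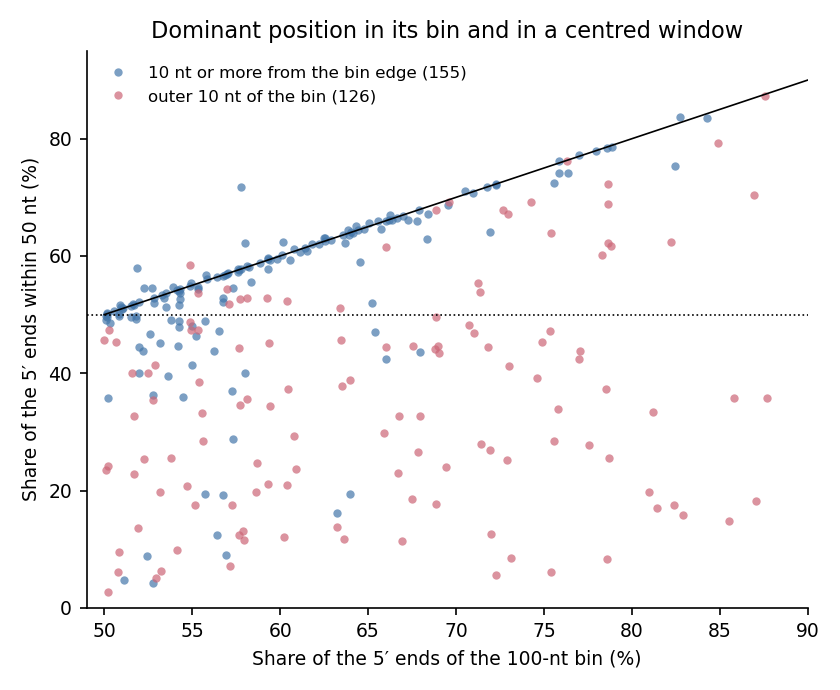
Share of the dominant position among the 5′ ends of its 100-nt bin (x axis, %) against its share within 50 nt on either side (y axis, %), with 1 point for each of 281 bins. The diagonal marks equal shares and the dotted line 50%, and the 126 bins with the position in the outer 10 nt make up most of the points far below the diagonal.

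The 3 bins with most molecules had their highest level in different pools. Levels are given in MPM, the molecules of a bin per 1000000 yeast molecules of the library. The start at chr4:714200 (minus, share 69.0%, 77641 molecules in all) had 3157 and 4575 MPM in pm, 3799.9 and 2715 during T1, 22035 and 19211 during T2, and 6865 and 4825 during T3. It was thus highest in T2, where both replicates lay far above all other libraries. The start at chr7:873715 (minus, 54.2%, 46571 molecules) had 17022 and 14477 in pm, 479 and 345 in T1, 119 and 108 in T2, and in T3 12291 and 9519. Its level was high before gametogenesis and after the return to growth, with no overlap between these 4 libraries and the 4 of T1 and T2. The start at chr12:351066 (minus, 66.6%, 45425 molecules) had 4234 and 6738 in pm, 1212 and 455 in T1, 500.0 and 275 in T2, and in T3 18541 and 26159. T3 was highest and pm came next, again without overlap.

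The other 7 of the 10 bins with most molecules showed 3 patterns. Highest in T3 were chr2:460408 (plus, 4118 and 4486 MPM in T3, 1438 to 2058 elsewhere), chr13:644233 (plus, 4342 and 5973 in T3, 388 to 2304 elsewhere), chr16:301002 (plus, 7144 and 7012 in T3, 168 to 1235 elsewhere), and chr12:35345 (minus, 7878 and 7075 in T3, 59.3 to 1098 elsewhere). Highest in pm were chr14:545636 (plus, 5312 and 3452 in pm, 544 and 386 in T3) and chr16:295395 (plus, 2642 and 2221 in pm, 629 and 462 in T3). Only chr6:89120 (plus) was highest in T2, with 3196 and 2280.3 there and 1036 to 1873 in the other libraries. In each of these 7 the replicates of the highest pool lay above all other libraries.

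**Figure D2:**
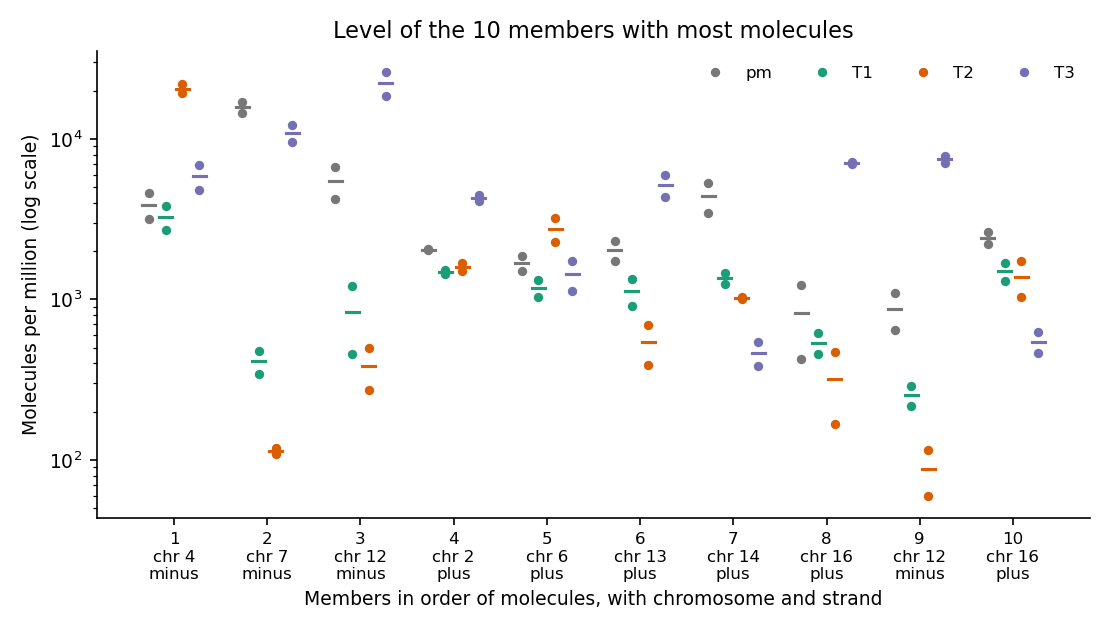
Level in MPM in each library (log scale) for the 10 bins with most molecules, named by chromosome and strand. Points are the 2 replicates of a pool and short lines their mean, and the second bin runs from 17022 in pm to 108 in T2.

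The 281 bins together took up 12.5% and 11.8% of the molecules of the pm libraries, 6.76% and 7.26% of T1, 7.60% and 7.57% of T2, and 19.1% in both T3 libraries. The pool means were 12.1% ± 0.49 (SD, n = 2) in pm, 7.01% ± 0.35 in T1, 7.58% ± 0.018 in T2, and 19.1% ± 0.048 in T3. T3 exceeded every other library, and T1 and T2 lay below both pm libraries. With 2 replicates a side an exact permutation test cannot go below p = 0.333, so these sums were not tested. In each library its own 3 largest bins supplied between 9.54% and 39.2% of the sum. Without the 3 bins with most molecules over all libraries, the bins held 15.3% and 15.1% of T3 and 5.33% to 10.01% of the other libraries. The window-sharp bins alone held 12.7% and 13.2% of T3, 8.50% and 8.57% of pm, and 2.99% to 3.63% of T1 and T2. Levels varied widely between the pools, with the highest pool mean at least 10 times the lowest in 145 of 272 bins and under 2 times in 10. The remaining 9 bins had no molecule in some pool. Differences of 10-fold or more were also counted in bins with at least 50 molecules in every pool. They were found in 65 of 167 dominant-position bins and in 278 of 1006 other bins. The pool with the highest mean MPM was T3 for 91 bins, T1 for 87, pm for 61, and T2 for 42. No such counts are given for the other bins. A bin can reach the limit on molecules through a single pool, which favours large differences, so all these counts are a description.

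To compare pools, molecules per bin were tested with limma voom over the 11405 bins that averaged 5 or more molecules in the libraries. A call needed an adjusted p (Benjamini-Hochberg) below 0.05 together with a 2-fold or larger change. All comparisons share the T1 libraries. Libraries were scaled by the median of ratios, and this choice matters. Relative to it, scaling by the total moves the median log2 change of all tested bins from 0.05 to 0.46 between pm and T1, from 0.13 to -0.76 between T1 and T2, and from -0.47 to -1.60 between T1 and T3. The position of the dominant-position bins relative to all bins was nearly the same under both. Their median lay lower than that of all bins on entry into gametogenesis (-0.43 by either scaling), close to it in T2 (-0.09 and -0.08 relative to all bins), and higher on the return to growth (0.86 and 0.87). Every change in level of a single start given below with an adjusted p was called under both scalings.

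On entry into gametogenesis (T1 against pm), dominant-position bins were called lower in 74 of 281 cases and higher in 30, at a median log2 change of -0.38. Of all tested bins 10% were called lower, 10.8% higher, and 20.9% in either direction. Of the 1917 other bins with 500 or more molecules, 15.3% were called lower, 16.9% higher, and 32.2% in either direction, beside 37.0% of the 281. Scaling by the total gave 59 lower and 44 higher. Among the window-sharp bins 51 of 141 were called lower and 12 higher, with a median of -1.05. The number of calls was 61 without pm replicate 2, 51 without T1 replicate 1, and 61 without T1 replicate 2, against 104 with all libraries.

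The largest rises were at starts almost absent from pm. Of these, chr7:438242 (plus, share 58.9%) had no molecule in either pm library, 340.0 and 594 MPM in T1, 258 and 86.4 in T2, and in T3 1.17 and 0. Taking 3 molecules over the pm pool as the floor, its level in MPM was at least 273-fold higher in T1 (adjusted p = 1.26e-05). The start at chr8:389304 (minus, 58.1%) rose from 1.65 and 2.29 MPM in pm to 593 and 734 in T1, a log2 change of 7.57 (SE 0.81, adjusted p = 1.62e-05), and had 306 and 331 in T2. The start at chr7:162625 (minus, 51.9%) had 1.65 and 1.53 in pm, from 3 molecules, and 372 and 579 in T1, a ratio of 283 (95% counting interval 96.7 to 1376, adjusted p = 4.98e-05). All 3 were nearly absent again in T3, at 0 to 7.24 MPM. T1 held 1191 of the 1690 molecules of chr7:438242 and 1234 of the 1336 of chr7:162625. Neither would have reached the limit on molecules without T1, so both rises are a description and no test.

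The largest falls went to starts used in pm. The start at chr8:437908 (plus, 78.6%) had 844 and 1333 MPM in pm, 7.69 and 1.04 in T1, 1.2 and 2.58 in T2, and in T3 980.4 and 1251. It fell by 8.58 on the log2 scale from pm to T1 (SE 0.80, adjusted p = 4.65e-06) and the T3 replicates lay within the range of the pm replicates. The start at chr9:384004 (minus, 69.6%) had 183 and 381 in pm and 4.94 and 1.04 in T1, so that it fell by 6.95 on the log2 scale (SE 0.87, adjusted p = 6.18e-05), and it had only 5.84 and 21.7 in T3. The third, chr7:873506 (minus, 50.0%), lies 209 nt downstream of chr7:873715 and is described with the starts inside longer molecules. The pm pool held 610 of the 641 molecules of chr9:384004 and 594 of the 744 of chr7:873506. Neither would have reached the limit on molecules without pm, so both falls are a description and no test.

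During the meiotic divisions and spore formation (T2 against T1), 34 bins were called higher and 10 lower, against 15.6% and 3.1% of all tested bins, or 18.7% in either direction. Of the 1917 other bins with 500 or more molecules, 19.0% were called higher, 5.27% lower, and 24.3% in either direction, beside 15.7% of the 281. The median log2 change was 0.04. The split of the calls depended on the scaling, with 23 higher and 69 lower by the total, and 26 higher and 53 lower by the upper quartile. Of the 44 calls, 33 were kept by the total and 36 by the upper quartile, and none was called in the opposite direction. Without T1 replicate 1 there were 24 calls. The largest rises were at starts found almost entirely in T2. The start at chr2:258105 (minus, 59.3%) had 4.95 and 3.05 MPM in pm, 0.549 and 0 in T1, 4579 and 2138 in T2, and in T3 7.0 and 0. The ratio of T2 to T1 was 10588, with a 95% counting interval of 1900 to 418263 since T1 held 1 molecule (adjusted p = 5.88e-07). Another, chr7:1028804 (minus, 67.9%), had 2.75 and 0 in T1 and 776 and 293 in T2, a log2 change of 9.51 (SE 1.00, adjusted p = 4.53e-06), and 0 to 1.81 in the pm and T3 libraries.

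The start at chr15:760517 (minus, 54.5%) was found in T2 alone, at 692 MPM in replicate 1 and 54.2 in replicate 2, and none of its 1197 molecules came from another pool. Its level was at least 454-fold higher in T2 than in T1 (adjusted p = 4.64e-05), although the replicates differ widely. It was chosen through T2 alone, so this rise is a description as well. The same holds for chr2:258105 and chr7:1028804, with 9296 of 9310 and 1521 of 1528 molecules in T2. The largest falls were smaller. The start at chr3:230427 (minus, 51.5%) had 209 and 419.8 in T1 and 8.39 and 19.3 in T2 and fell by 3.57 (SE 0.70, adjusted p = 0.00133), and chr10:67922 (minus, 55.0%) had 118 and 132 in T1 and 5.40 and 9.03 in T2 and fell by 3.20 (SE 0.82, adjusted p = 0.0101). The start at chr7:162625, which had appeared in T1, had 49.2 and 20.6 MPM in T2. It fell by 2.86 (SE 0.67, adjusted p = 0.0054). T1 held 784 of the 955 molecules of chr3:230427, 342 of the 673 of chr10:67922, and 1234 of the 1336 of chr7:162625. Without T1 all of them would have missed the limit on molecules, so these falls are a description too.

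On the return to growth (T3 against T1), 105 of the 281 bins were called higher and 53 lower, at a median log2 change of 0.39. Of all tested bins, 15.2% were called higher and 18.1% lower, or 33.3% in either direction, and of the 1917 other bins with 500 or more molecules 365 were called higher and 600 lower. Among the window-sharp bins 74 of 141 were called higher and 23 lower, with a median of 1.67. Scaling by the total reversed the split to 84 higher and 117 lower, while the median of these bins stayed 0.87 above that of all bins. No test of the difference between these bins and the others was made. Bins that reached 500 molecules only through T3 are among those called higher, so the counts are a description.

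The largest rises were at starts with low levels in T1. The start at chr7:233743 (minus, 63.9%) had 129 and 135 MPM in pm, 17.0 and 13.5 in T1, 21.6 and 9.03 in T2, and in T3 2094 and 1816, a log2 rise of 8.08 over T1 (SE 0.62, adjusted p = 8e-08). The start at chr8:437908, which had fallen in T1, rose by 9.28 (SE 0.81, adjusted p = 3.36e-07). The start at chr9:215058 (minus, 75.9%) had 1.65 to 11.4 in the 6 libraries of the other pools and 370.0 and 322 in T3. It rose by 8.19 over T1 (SE 0.79, adjusted p = 1.09e-06). T3 held 2797 of the 3139 molecules of chr7:233743 and 495 of the 526 of chr9:215058. Neither would have reached the limit on molecules without T3, so both rises are a description and no test. In the other direction, chr10:121057 (minus, 72.3%) had 308 and 191 MPM in T1 and no molecule in T3, and was at least 126-fold lower in T3 (adjusted p = 4.38e-06). The T1 starts at chr7:162625 and chr7:438242 had 1 molecule each in T3. The ratio of T1 to T3 was 625 for the first (95% counting interval 112 to 24697, adjusted p = 1.15e-05). For the second it was 603 (108 to 23837, adjusted p = 2.53e-05). T1 held 744 of the 1064 molecules of chr10:121057, 1234 of the 1336 of chr7:162625, and 1191 of the 1690 of chr7:438242. Without T1 all of them would have missed the limit on molecules, so these falls are a description as well.

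**Figure D3:**
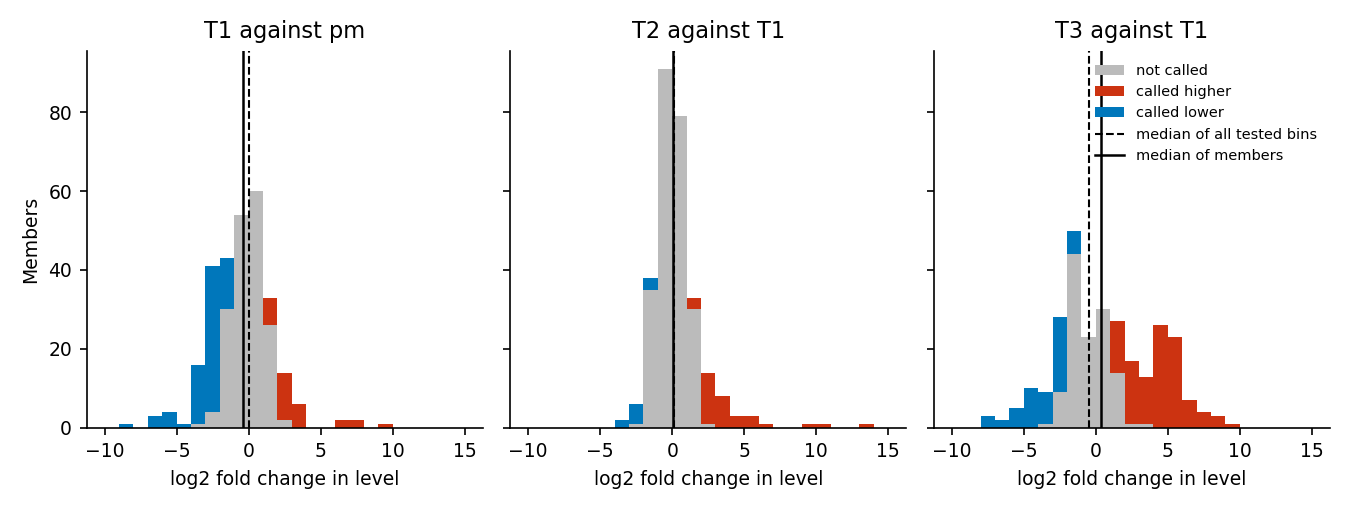
Distribution of the log2 fold change in level of the 281 bins for each comparison (x axis), with the number of bins on the y axis. Colours mark bins called higher or lower, the solid line is the median of the 281 bins and the dashed line that of all 11405 tested bins, and the solid line lies right of the dashed one only for T3 against T1.

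The dominant position itself did not move between pools where it could be measured. In every pool in which a bin had 50 or more molecules, the most used position was that of the summed libraries, in 252 bins for pm, 264 for T1, 252 for T2, and 193 for T3. Since the pool contributes to the sum, this is partly set by the selection. Without the limit of 50 molecules another position was the most used one in 9 bins, 1 in T1, 3 in T2, and 5 in T3. The pool in question held 1 to 7 molecules of the bin in 8 of them, and 40 for chr2:397647 (minus), where the most used position of T2 lay 1 nt away. For single libraries the number was 24 bins.

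The share was likewise similar in all pools. The median over bins was 65.6% and 61.5% for the pm libraries, 60.4% and 62.1% for T1, 62.0% and 64.5% for T2, and for T3 64.7% and 65.9%. The pool means were 63.6% ± 2.9 (SD, n = 2), 61.2% ± 1.2, 63.3% ± 1.8, and 65.3% ± 0.85, and the pm replicates lay about as far apart as the highest and lowest pool mean. The other bins had medians of 26.0% to 28.6%. Of 167 bins with at least 50 molecules in every pool, 144 had a share of 50% or more in pm, 149 in T1, 153 in T2, and 159 in T3, and 123 had it in all 4. Within a bin, the share of the highest and lowest pool differed by a median of 10.5 percentage points, and the replicates of a pool by a median of 5.19 points.

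Spike-in transcripts made outside the cell served as a reference with one start. Of the pGIBS-LYS molecules starting in the bin of its main start, position 18 of the spike-in sequence, 80.2% and 69.9% started at that position in pm, 51.9% and 45.7% in T1, 64.4% and 65.9% in T2, and in T3 74.6% and 79.7%. For pGIBS-PHE the shares were 83.9% and 83.5%, 60.7% and 58.6%, 77.1% and 74.9%, and 81.8% and 84.3%. Both were thus lowest in T1, the pool in which the yeast bins also had their lowest mean share, and the range of the spike-ins was larger than that of the bins. The part of this library property in the shares of yeast starts was not tested.

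**Figure D4:**
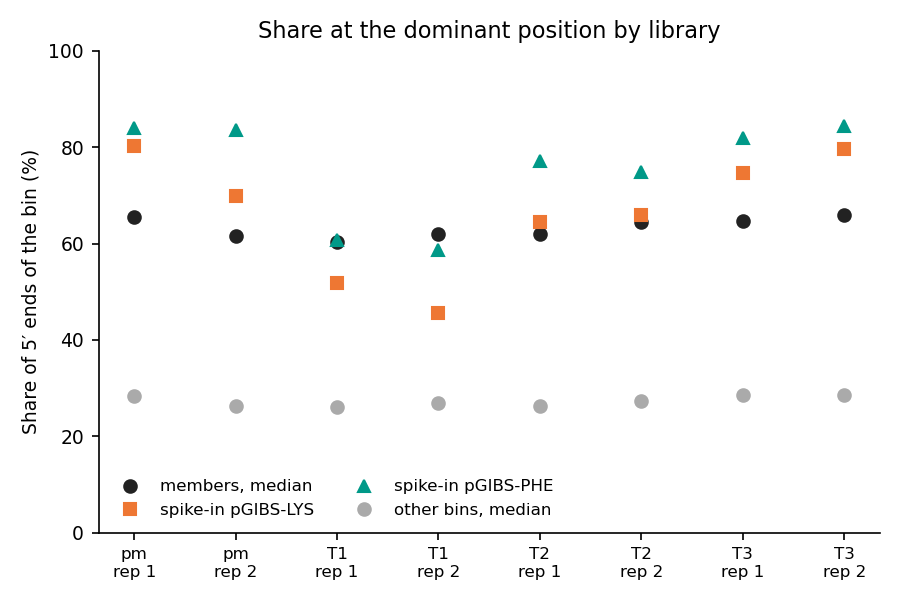
Share of 5′ ends at the dominant position in each library (%), as the median over the 281 bins, the median over the 1917 other bins, and the value of 2 spike-in transcripts at position 18. The spike-ins dip to between 45.7% and 60.7% in T1, while the median of the bins stays between 60.4% and 65.9%.

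The odds of starting at the dominant position were compared between pools, first with limma diffSplice. No bin was called in any comparison, neither of the 281 nor of all 2198 (0%), and at an unadjusted p under 0.05 5 of the 281 passed in the first comparison (T1 and pm), 1 in the second (T2 and T1), and 6 in the third (T3 and T1). This fit carries the spread of the level of a bin between replicates into the odds. A fit of the log2 odds per library, added after the data were seen, called 4, 0, and 2 bins in the same order, against 1.82%, 0.273%, and 1% of all 2198 bins. Unadjusted p-values under 0.05 numbered 35, 35, and 33. In the diffSplice fit the median change of the log2 odds was -0.05, 0.11, and 0.23 for the 281 bins, and -0.09, 0.06, and 0.21 for all bins.

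The changes called by the second fit were changes of degree, and the dominant position stayed the most used one. At chr2:460408, one of the largest bins, the share was 67.0% and 65.3% in pm, 44.5% and 50.9% in T1, 61.2% and 64.8% in T2, and in T3 53.0% and 61.9%, and the log2 odds fell by 1.13 from pm to T1 (SE 0.22, adjusted p = 0.0377). At chr2:244804 (plus) the share was 66.7% and 61.9% in pm, the first of them from 18 molecules, and 40.4% and 38.6% in T1, and the log2 odds fell by 1.29 (SE 0.23, adjusted p = 0.0225). The spike-ins fell between the same pools. The share rose only at chr10:540903 (plus), from 66.7% and 59.1% in pm to 90.5% and 83.8% in T1, by 2.23 in log2 odds (SE 0.35, adjusted p = 0.0135). A bin border separates it from chr10:540895, the dominant position of the neighbouring bin, 8 nt upstream. For T3 against T1, the share rose from 69.6% and 64.4% to 87.1% and 83.9% at chr12:765693 (plus, adjusted p = 0.0235) and from 47.8% and 47.2% to 73.2% and 67.3% at chr13:223962 (plus, adjusted p = 0.0212). The spike-ins also rose between these pools. Their pool means went from 48.8% to 77.1% for pGIBS-LYS and from 59.6% to 83.1% for pGIBS-PHE. The part of this library property in the called changes was not tested.

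In 8 of the 10 bins with most molecules the share was lower in the pool with the highest level than in the pool with the lowest. Of these, chr7:873715 held 56.7% and 46.1% of its bin in pm and 59.0% and 62.0% in T3, where it was abundant, but 73.7% to 91.7% in T1 and T2, where it was rare. At chr16:301002 the share of the bin was 69.4% and 74.2% in T3, its highest pool, and 82.5% to 91.5% in the other libraries. Within 50 nt on either side, over all libraries, this position held only 28.4%. The start at chr12:35345 had 59.5% and 64.4% in T3 and at least 68.8% elsewhere. The opposite was found at chr2:460408, with a higher share in T3, its highest pool, than in T1, its lowest, and at chr6:89120. Over the 167 bins with at least 50 molecules in every pool, the share was lower in the pool with the highest level than in the pool with the lowest in 104, with a median difference of -2.55 percentage points and a range of -37.4 to 27.0. The same measure gave 590 of 1006 and a median of -1.71 points in the other bins. These are descriptions without a test, and the spike-in shares differed between the same libraries.

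The molecules from a dominant position mostly ended at several 3′ positions. Their span, the distance on the genome from 5′ to 3′ end with introns included, had a median of 898 nt over the 281 bins and ran from 94 to 1558 nt. It was under 400 nt in 13 bins and over 1500 nt in 4. A dominant start was joined to a median of 72 different 3′ positions, and the most frequent pair of ends made up a median of 20.9% of its molecules. A median of 49.1% of the molecules ended within 5 nt of the main 3′ position, with a range of 6.04% to 99.7%. The most abundant start, chr4:714200, had 490 3′ positions and 18.7% of its molecules at the main one.

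Over all libraries, the shortest molecules started at chr15:698012 (plus, median 94 nt), chr5:503561 (plus, 111 nt), and chr4:1432887 (minus, 162 nt). The bins also held long molecules, and at chr4:1432887 the median span of the bin was 157 to 162 nt in pm, T3, and T2 replicate 2, but 886 and 1011.5 nt in T1 and 890.0 nt in T2 replicate 1. This bin was not called in the comparison of spans between T1 and pm (log2 change 2.57, SE 0.82, adjusted p = 0.204). At chr5:503561 the median was 110 or 111 nt in 7 libraries and 1024 nt in T1 replicate 2, from 25 molecules. At chr5:503561 the level was 114 and 90.8 MPM in pm, 31.3 and 26.0 in T1, 29.4 and 627 in T2, and in T3 815 and 1599, so that the T2 replicates were far apart. At chr4:1432887 they were 42.6 and 422, again with replicate 2 higher. The longest molecules started at chr11:114163 (plus, 1558 nt), chr6:255965 (minus, 1528 nt), and chr10:526903 (minus, 1524 nt).

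Spans and 3′ ends, which did not enter the selection, were compared with those of the other bins, using 195 and 1194 bins with at least 10 molecules in each library. The median span was 907 nt on average over the libraries for the dominant-position bins and 895 nt for the others. The difference of 11.6 nt (SD 9.37, n = 8) was positive in 7 of 8 libraries (exact permutation test over the signs of the 8 differences, two-sided, p = 0.0156, smallest possible 0.00781). It did not hold for the window-sharp bins, which were 25.8 nt shorter than the others, nor when each combination of start and unique molecular identifier (UMI) was counted once, with a difference of -0.66 nt. The share of molecules at the main 3′ position was 49.9% in the dominant-position bins and 49.02% in the others, a difference of 0.87 percentage points (SD 2.12, positive in 4 of 8 libraries, exact permutation p = 0.32). These p-values were not adjusted, and 4 such comparisons were made, among which that of starts inside longer molecules is given below. Within 102 bins with enough molecules, those starting at the dominant position reached the main 3′ position in 46.5% of cases and those starting elsewhere in the bin in 49.7%, and the difference of -3.23 points (SD 3.25) was negative in 7 of 8 libraries (exact permutation p = 0.0391).

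The median span of a bin rarely changed between pools. In a limma fit of the log2 median span over 1389 bins, 3 of the 195 were called longer and 1 shorter for T1 against pm (2.66% and 0.288% of all bins, 2.95% in either direction). None was called for T2 against T1, where 0.288% of all bins were called longer and 0.504% shorter, 0.792% in all, and 21 of the 195 had an unadjusted p under 0.05. For T3 against T1, 3 were called shorter and none longer (4.46% and 0.288% of all bins, 4.75% in either direction). The percentages of the 195 bins called in either direction were 2.05%, 0%, and 1.54%. The counts depended on single libraries, with 2 calls for T1 against pm without T1 replicate 2 and 8 without pm replicate 2. For T3 against T1 there were 0 calls without T1 replicate 2 and 16 without T3 replicate 1, and for T2 against T1 there were 3 without T1 replicate 1. Among the called bins the largest change was at chr10:105597 (plus), where the median span was 1480 nt in both pm libraries and 1281 to 1286 nt in the other 6, a log2 change of -0.20 (SE 0.0019, adjusted p = 6.07e-06). At chr4:714200 it was 704 and 708 nt in pm and 743 to 758 nt in the other libraries, a log2 change of 0.10 from pm to T1 (SE 0.0048, adjusted p = 0.00236). Neither was called with the mean span in place of the median. For T3 against T1, chr7:951600 (minus) went from 833 and 832.5 nt to 820.0 nt in both replicates (adjusted p = 0.0191), and chr4:307343 (plus) from 610.0 and 612 nt to 604 and 602.5 nt (adjusted p = 0.0194). Neither of these was called with the mean span or with the replicate block.

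A start was called inside where at least as many molecules that began over 100 nt upstream on the same strand ran past it as began in the bin. This was so for 11 of the 281 bins (3.91%) and for 96 of the 1917 others (5.01%). Among bins with at least 10 molecules per library the percentages were 2.44% and 2.60% on average, a difference of -0.16 points (SD 0.56, negative in 3 of 8 libraries, exact permutation p = 0.477). For the window-sharp bins the difference was 1.98 points in the other direction. Starts inside genes are of interest because they can give shortened proteins. Without an annotation, whether the starts called inside here lie within genes was not determined.

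Of these 11 starts, 9 had their highest level in T3. None of these 9 would have reached 500 molecules without T3, which held for example 489 of the 502 molecules of chr2:587728 and 495 of the 526 of chr9:215058, so that their levels are a description. The passing molecules differed between pools as well, so the starts were set against them. For these 9 starts the selection favours T3 in this percentage too, so it is a description as well. The start at chr2:587728 (plus, median span 658 nt) had 2 molecules in pm, 8 in T1, 3 in T2, and 489 in T3, while 2181, 1462, 549, and 16072 molecules passed it. It thus made up 2.98% and 2.90% of starts and passing molecules in the T3 replicates and 0 to 0.58% in the other 6 libraries. At chr9:215058, which shares its main 3′ end with 2 upstream bins, chr9:215496 and chr9:215506, the percentage was 13.8% and 15.7% in T3, 2.14% and 2.34% in T1, and 0.797% to 10% in pm and T2.

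The start at chr8:368869 (minus) made up 17.0% and 23.7% in T3, 5.81% and 1.92% in T1, and 0.714% to 4.49% in pm and T2. At chr2:82274 (minus) the values were 42.8% and 45.5% in T3, 20.7% and 21.9% in T1, and 8.33% to 14.9% in the rest. In 10 of the 11 bins, both T3 libraries lay above both T1 libraries. The 9 bins chosen through T3 are among them, so this count is a description and no test. The spike-in shares given above also differed between T1 and T3, but they cover only 5′ ends in the bin of the main start. They give no value for ends far inside a molecule. The part of library properties in the percentages of inside starts was not tested.

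The starts at chr7:162625 and chr7:873506 followed other pools. The T1 start at chr7:162625 made up 45.6% and 43.4% of starts and passing molecules in T1 and 40.6% and 42.1% in T2, so that it kept a similar percentage while its level changed, and T3 held only 3 molecules at this place. Its counterpart at chr7:873506 had 127 and 394 MPM in pm, 2.75 and 2.08 in T1, 0.599 and 0 in T2, and in T3 91.0 and 116, and fell by 6.83 on the log2 scale from pm to T1 (SE 0.88, adjusted p = 7.05e-05). The 49478 molecules that passed it, mostly from the abundant start 209 nt upstream, outnumbered its own 744 molecules 66.5 to 1. It made up 0 to 2.41% of starts and passing molecules in every library. As given above, chr7:873506 was chosen through pm, so its fall in level is a description.

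**Figure D5:**
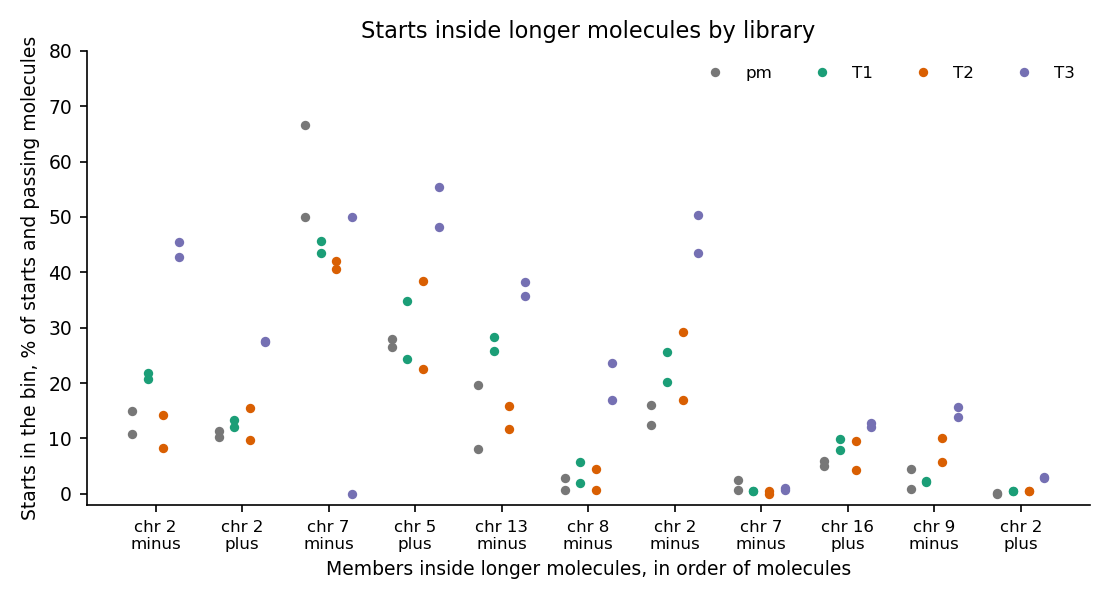
Molecules that start in the bin as a percentage of these and of the molecules that pass it from upstream (y axis), in each library, for the 11 bins inside longer molecules in order of their molecules (chromosome and strand on the x axis). Points are single libraries, T3 lies above T1 in both replicates of 10 bins, and the pm and T3 points of the third bin rest on 5 and 3 molecules.

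Few dominant starts lay close to each other. On one strand this is largely set by the selection, since a bin holds a single dominant position. No such counts were made for the other bins. In 21 bins the main 3′ end was within 100 nt of that of another of the 281 bins on the same strand, and 7 pairs of dominant positions were within 300 nt on one strand, 6 of them the pairs split by a bin border. In 8 bins another dominant start lay within 1000 nt on the opposite strand and pointed away, such as chr14:545636 (plus, 14620 molecules) and chr14:544979 (minus, 1534 molecules).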

How the data were processed

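TIF-seq molecules of 8 libraries, 4 pools with 2 replicates each, were analysed. Per the labels and the study's methods, the authors trimmed, mapped, and filtered read pairs to unique pairs on one chromosome of the SK1 assembly and converted them with bedtools. The labels name cutadapt 1.16 and STAR 2.5.3a, without saying for which assay. The deposited files hold no counts and no normalization, only the read positions, strands, and a mapping quality score that the authors' aligner gave each pair. No pair of ends occurs more than once with the same UMI in a file, and each line was taken as 1 molecule. The 3 spike-in sequences were left out of the yeast totals.

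Levels, shares, and spans were fitted across all bins with limma 3.58.1 in R 4.3.3, on all 8 libraries with the pool as the only term. Bins entered the share fit that averaged 2 or more molecules in the libraries both on and off the dominant position, and the span fit with at least 10 molecules in each library. The fits were tested on simulated data. There the planned fit of shares missed the changes where replicates differed more in level, and the fit of log2 odds found most of them, which is why both are given. Python 3.11.15 was used for the rest.

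The bins, the rules, and the named starts were chosen with earlier results of these data known. Named were the bins with most molecules, highest share, values next to the limits, longest and shortest spans, and largest called changes in the same direction in all 4 pairs of libraries. Alternatives comprised other scalings, filters, tests, limits of the rule, bins moved by 50 nt, UMI counting, blocking on the replicate number, and leaving out single libraries. The sources used here do not say whether TIF-seq replicates came from separate cultures, and p-values measure only the spread between these samples, which may be technical. Counting intervals cover counting error only.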

Additional observations from a re-analysis of the deposited data

How the results depend on the processing

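All 18 largest changes in level kept their direction under each of the 18 alternatives run for them, including each library left out. They kept their call under those that left both replicates in each pool. The bins moved by 50 nt and the other limits of the rule were not among these alternatives. The number of dominant-position bins was 281, and it became 149 with the share taken within 50 nt on either side, 7 with each pair of ends counted once, 548 at a share of 40%, 138 at 60%, and 184 with at least 1000 molecules, and ran from 249 to 270 with a library left out. With bins moved by 50 nt there were 282, of which 142 had the same dominant position. The median share, 63.3% as the mean over libraries, became 70.9% within 2 nt. Another most used position was found in 9 bins by pool, in 24 by library, and in 0 with at least 50 molecules.

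Calls in level followed the number of bins that other limits of the rule admit. In the comparisons of T1, T2, and T3 in that order there were 212, 95, and 297 of 548 bins at a share of 40%, 46, 19, and 83 of 138 at 60%, and 63, 19, and 97 of the 141 window-sharp bins, beside 104, 44, and 158 of 281. For T2 against T1, scaling by the total gave 92 calls and upper-quartile scaling 79. Leaving out a library gave 51 to 119, 24 to 55, and 115 to 182 calls. With the log2 odds, calls in share were 4 (T1 against pm) and 2 (the return to growth), and 0 under every other setting run. Calls in span were 7 in T1 and 7 in T3 with only the 2 pools in the fit, 2 in T1 and 0 in T3 with the replicate block, 0 in T1 with the mean span, 1 in T2 with molecules from the dominant position alone, and 1 each in T1 and T3 for the window-sharp bins. With a library left out they were 2 to 8, 0 to 3, and 0 to 16.

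The differences in span, 3′ ends, and inside starts from other bins had no stable direction. The span difference was -0.66 nt with UMI counting and -25.8 nt in the window-sharp bins, and 9.57 to 13.3 nt with a library left out. The 3′ share difference was -0.89 points with UMI counting, -2.21 at a share of 60%, -0.77 at the exact 3′ position, -1.56 in the window-sharp bins, and 0.41 to 1.15 with a library left out. The difference in inside starts was 0.31 points with UMI counting, 0.28 at a share of 60%, 0.77 with at least 1000 molecules, 0.36 with upstream starts over 200 nt away, 1.98 in the window-sharp bins, and -0.26 to -0.04 with a library left out. The causes were not tested.

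With a replicate block there were 96, 41, and 152 calls in level, 0 in share in every comparison, and 2, 0, and 0 in span. The deviations of same-numbered libraries correlated at -0.26 to 0.10. These correlations cannot show which libraries, if any, came from the same culture. With the T1 numbers crossed, chosen after the data were seen, there were 108, 56, and 179 calls in level.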
